A study of Mus musculus with 20 samples.

Results

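Mitochondrial ribosomal protein genes are the nuclear genes that supply the protein part of the mitochondrial ribosome. They were taken here as every row of the expression table whose gene symbol starts with Mrpl or Mrps followed by a digit, which gave 76 of 23402 rows, 47 named Mrpl and 29 named Mrps. The table holds RNA levels in subcutaneous tumours of MC38, a mouse colon carcinoma line, in 20 libraries. The P.T.ATBx group had received peri-tumoral ATBx and holds 10 libraries, and the Control group, which had received vehicle, holds 10. The labels name no agent, dose, schedule, mouse strain or age, and ATBx usually stands for antibiotics. Whether every library is a separate mouse is not stated, so the p-values below reflect only how these samples spread, in which technical variation may have a share.

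The mitochondrial ribosome sits at the matrix side of the inner membrane and translates the few messages encoded by mitochondrial DNA, all of which code for subunits of oxidative phosphorylation. It descends from the bacterial ribosome, and some antibiotics that stop bacterial translation can also act on it. All of its proteins are made in the cytosol and imported, while its RNA is made inside the organelle. Some of the proteins have a bacterial counterpart and others are specific to mitochondria. By their place in the mammalian particle, 49 of the 76 genes code for proteins of the large subunit, among them Mrps30 and Mrps18a in spite of their names, and 26 for proteins of the small subunit. Mrps36 codes for a component of the oxoglutarate dehydrogenase complex and was kept because its symbol meets the rule. Of the 75 ribosomal genes, 46 were classed as having a bacterial counterpart and 29 as specific to mitochondria. Mrps18a and Mrps18b, which are related to the same bacterial protein as Mrps18c, were counted among the 29.

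The deposited values are FPKM, which are scaled to gene length and to the fragments of the library, so levels of different genes can be set beside each other. Read totals are unknown, and the number of rows above 0 was 15695 to 16080 in P.T.ATBx and 15527 to 16345 in Control. Of 9 markers of colon epithelium and carcinoma, summed levels ran from 13.0 to 54.0 FPKM in P.T.ATBx and from 4.88 to 179 in Control. The keratin genes Krt8, Krt18 and Krt19 averaged 5.67, 6.91 and 9.50 FPKM in P.T.ATBx, against 10.8, 13.7 and 19.2 in Control. Their SDs were 3.0, 3.4 and 5.4 in P.T.ATBx, against 13, 16 and 20 in Control (n = 10 each). Epcam, an epithelial adhesion gene, averaged 1.96 FPKM in P.T.ATBx and 3.70 in Control. Lgals4 went the other way, with 0.83 FPKM in P.T.ATBx and 0.52 in Control. Its log2 fold change, P.T.ATBx minus Control, was 0.27 (adjusted p = 0.142, limma), and that of Cdh1 was −0.24 (adjusted p = 0.264, limma). Of the 6 tested markers 1 was positive and 5 were negative, and 0 had an adjusted p under 0.05 (limma). Krt20 and Vil1 averaged under 0.5 FPKM in both groups. Cdx2 is listed at 0 in all 20 libraries, as are Nrf1 and Dhx30, which most cells use, so a listed 0 cannot be read as a low level. Rpph1 and Rmrp, small noncoding RNAs that serve RNase P and RNase MRP, together made up 9.02% to 17.2% of summed FPKM in P.T.ATBx and 7.75% to 20.5% in Control, with the 4 highest shares in P.T.ATBx 1, P.T.ATBx 4, Control 1 and Control 3. In bulk tumour RNA, fewer cells of a type and less RNA per cell cannot be told apart.

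All 76 genes were expressed in both groups, and their levels spanned a wide range although most of their proteins occur once per ribosome. Mrpl33, a small protein of the large subunit, had the highest level, at 212 FPKM on average in P.T.ATBx and 206 in Control. Mrpl54 followed with 113 FPKM in P.T.ATBx and 110 in Control, and Mrpl20 with 112 FPKM in P.T.ATBx and 111 in Control. The lowest level was that of Mrps25, a small-subunit protein specific to mitochondria, at 4.78 FPKM in P.T.ATBx and 4.90 in Control. Mrpl17 had 5.99 FPKM in P.T.ATBx and 5.96 in Control, and Mrpl23, which lies near the exit of the nascent chain tunnel, had 6.64 FPKM in P.T.ATBx and 6.19 in Control. The mean over all libraries was thus 43.2 times as high for Mrpl33 as for Mrps25.

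The median level over the large-subunit genes was 40.1 FPKM in P.T.ATBx and 40.4 in Control, and over the small-subunit genes 38.0 FPKM in P.T.ATBx and 36.9 in Control. Genes with a bacterial counterpart had a median of 42.6 FPKM in P.T.ATBx and 41.0 in Control. For the genes specific to mitochondria the medians were 30.6 FPKM in P.T.ATBx and 30.1 in Control. Longer transcripts tended to have lower FPKM, with a rank correlation of −0.34 across the 76 genes, against −0.19 across the 12283 tested genes with a known transcript length. Genes share libraries and are not independent, so this is a description only.

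**Figure D1:**
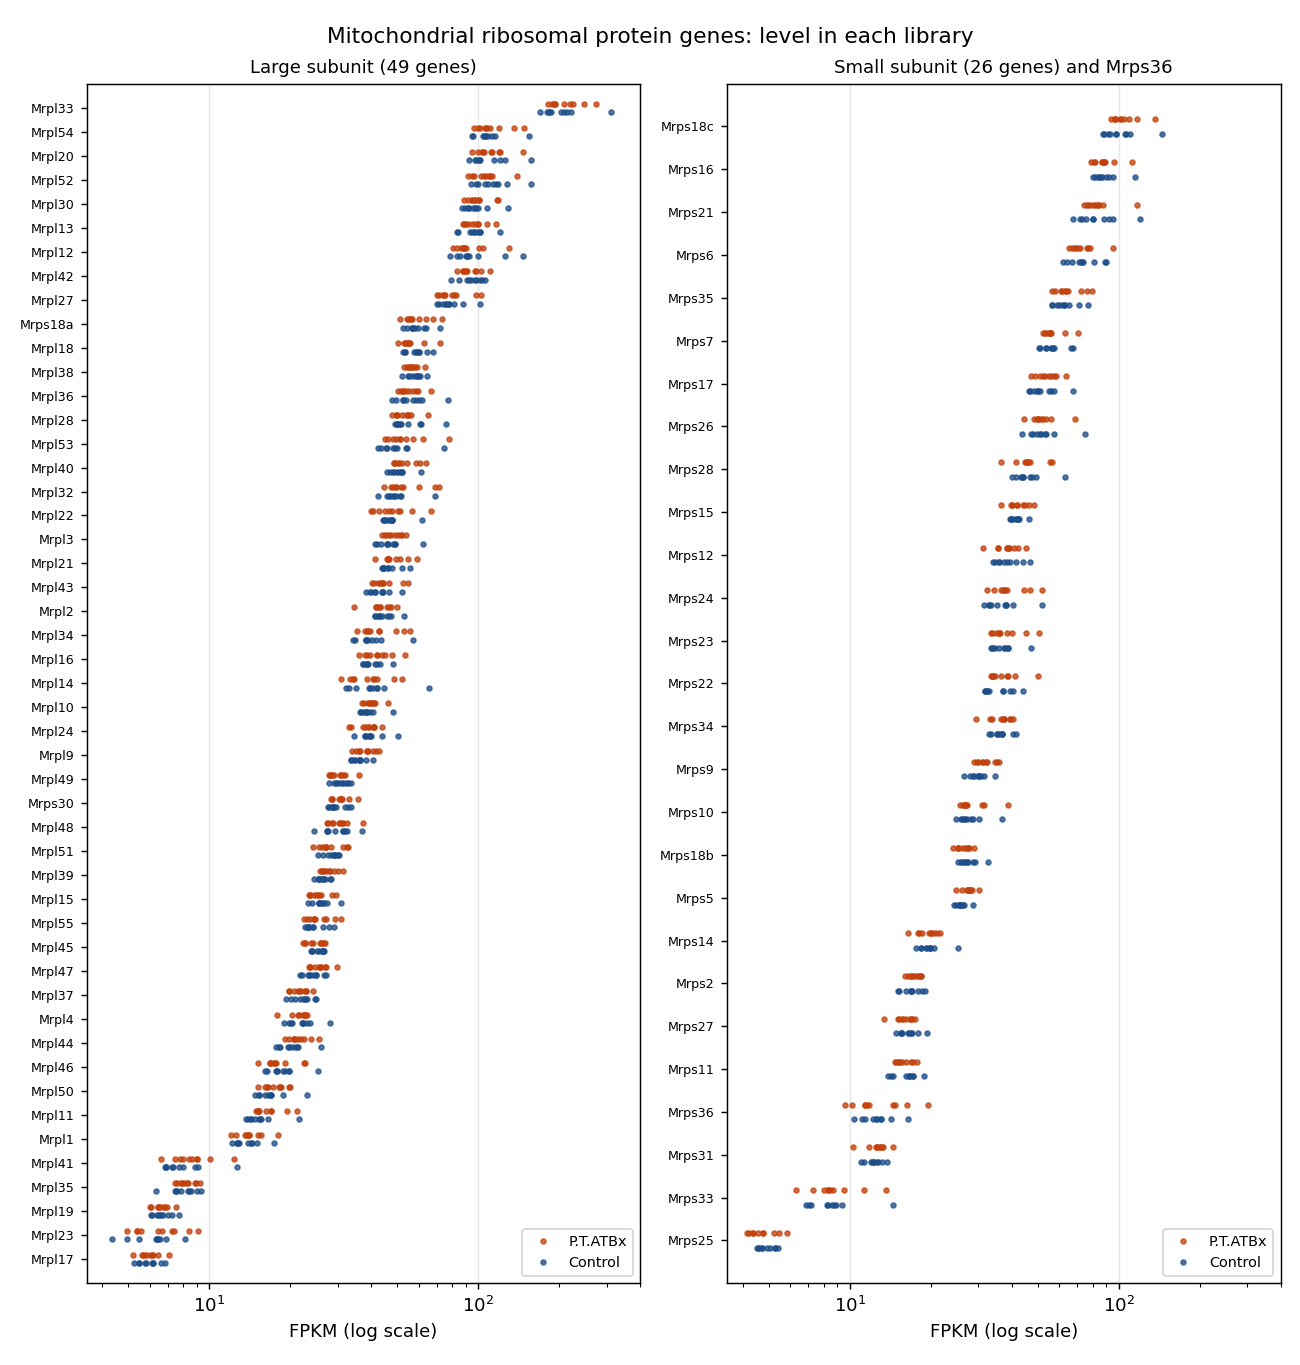
FPKM (log scale) of each of the 76 genes in each library, with P.T.ATBx points above Control points in every row and genes ordered by mean level within the large subunit (left) and the small subunit with Mrps36 (right). The 2 groups overlap in every row, from Mrps25 at 4.15 to 5.85 FPKM in P.T.ATBx and 4.51 to 5.39 in Control up to Mrpl33 at 182 to 274 in P.T.ATBx and 169 to 313 in Control.

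The RNA levels of mitochondrial ribosomal proteins in P.T.ATBx tumours were close to those in Control tumours. None of the 76 genes passed the test in either direction (limma on log2(FPKM + 1), two-sided, Benjamini-Hochberg adjusted p under 0.05 over 12788 genes), that is 0 higher and 0 lower. Over all genes tested, 0.461% were called higher, 0.383% lower and 0.845% in either direction, so 0 of 76 is a share near the background. At an unadjusted p under 0.05 there were 2 of the 76 genes (2.63%), against 13.6% of all genes tested. In all 76 genes the libraries of the 2 groups overlapped, and 0.133% of all tested genes had groups that did not overlap.

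The estimates were small. They were about as precise as those of the whole table, with a median SE of 0.060 in the 76 genes and 0.059 in all genes tested. Log2 fold changes, P.T.ATBx minus Control, ran from −0.086 in Mrpl52 to 0.11 in Mrpl32, with a median of 0.023, against a median of 0.0027 over all genes tested. The members' median was −0.016 without P.T.ATBx 1 and 0.059 without Control 1. Positive values were seen in 47 genes and negative ones in 29, and 51.5% of all tested genes were positive. The number of positive members was 32 without P.T.ATBx 1 and 62 without Control 1. The median absolute log2 fold change was 0.041 in the 76 genes and 0.055 in all genes tested. Every 95% interval of the 76, taken gene by gene, lay between 0.822-fold and 1.23-fold. These are folds of FPKM + 1, which understate changes of low genes. These data therefore bound the difference of each gene on that scale but do not show that the groups were alike.

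**Figure D2:**
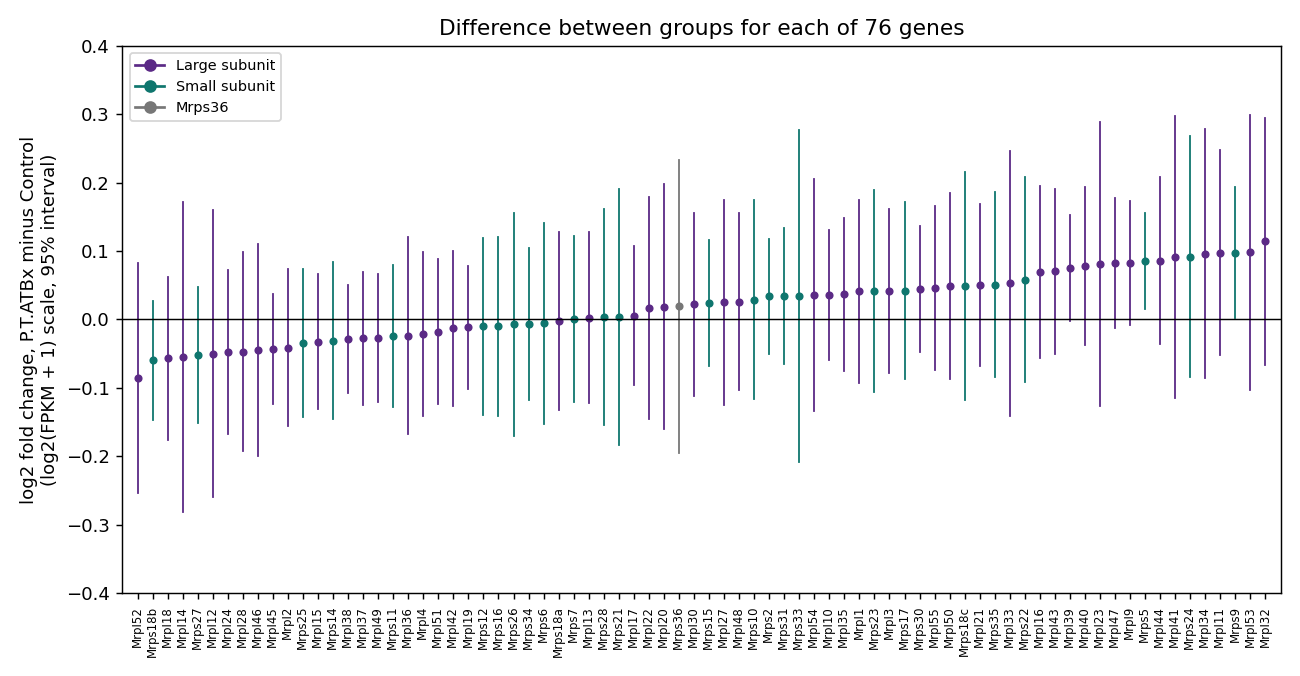
Difference of mean log2(FPKM + 1) for each of the 76 genes, taken as P.T.ATBx minus Control, with its 95% interval (limma, 10 libraries per group) and genes in order of their estimate. Points run from −0.086 to 0.11, and 74 of the intervals cross 0, the exceptions being Mrps5 and Mrps9.

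Among the large-subunit genes, log2 fold changes were positive in 30 and negative in 19, and their median was 0.025. Mrpl2 and Mrpl3 belong to the core around the peptidyl transferase centre, where peptide bonds are made. Mrpl2 ran from 34.5 to 49.7 FPKM with a median of 43.2 in P.T.ATBx, against 41.1 to 53.0 with a median of 43.3 in Control. Mrpl3 ran from 43.8 to 53.6 FPKM with a median of 48.2 in P.T.ATBx, against 41.3 to 62.2 with a median of 46.0 in Control. In both genes the groups overlapped, and the log2 fold changes were −0.041 (SE 0.055) for Mrpl2 and 0.042 (SE 0.058) for Mrpl3. Mrpl4, a protein of the tunnel wall, had −0.021 (SE 0.058).

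The stalk proteins recruit and activate translation factors or guide the spent tRNA out of the ribosome. Mrpl12, the multi-copy protein of the factor-binding stalk, ran from 80.9 to 130 FPKM with a median of 88.3 in P.T.ATBx, against 78.7 to 147 with a median of 90.5 in Control. Its log2 fold change was −0.050 (SE 0.10, adjusted p = 0.873, limma), and its libraries spread more than those of most other members. Mrpl10, which anchors that stalk, had 0.036 (SE 0.046), with 8 of 10 P.T.ATBx libraries above the Control median. Mrpl11, at the stalk base, ran from 14.9 to 21.3 FPKM with a median of 15.8 in P.T.ATBx, against 13.7 to 21.5 with a median of 15.0 in Control. It exceeded the Control median in 9 of 10 P.T.ATBx libraries, the log2 difference being 0.098 (SE 0.072; limma, adjusted p = 0.610). Mrpl1, the protein of the other stalk, had 0.041 (SE 0.064).

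Of the large-subunit genes with positive values, Mrpl39, Mrpl9 and Mrpl47 had the smallest p among the genes named Mrpl. Mrpl39, specific to mitochondria, ran from 25.9 to 31.5 FPKM with a median of 27.5 in P.T.ATBx, against 24.5 to 28.4 with a median of 26.3 in Control (log2 fold change 0.075, SE 0.037, adjusted p = 0.385, limma). Mrpl9 had 0.083 (adjusted p = 0.415, limma) and Mrpl47 had 0.082 (adjusted p = 0.450, limma), both with 7 of 10 P.T.ATBx libraries above the Control median. On the negative side stood Mrpl45, Mrpl52 and Mrpl18. Mrpl45, which ties the large subunit to the inner membrane near the tunnel exit, ran from 22.4 to 26.8 FPKM with a median of 25.0 in P.T.ATBx, against 23.8 to 26.7 with a median of 25.9 in Control (log2 fold change −0.043, SE 0.039, adjusted p = 0.679, limma). Mrpl52 ran from 91.7 to 139 FPKM with a median of 106 in P.T.ATBx, against 93.7 to 158 with a median of 111 in Control, at −0.086 (SE 0.081, adjusted p = 0.695, limma). Mrpl18 had −0.057 (SE 0.057). Mrpl52 and Mrpl18 exceeded the Control median in 2 of 10 P.T.ATBx libraries each, and the group ranges overlapped. Mrps30 and Mrps18a, the large-subunit proteins with small-subunit names, had 0.045 (SE 0.044) and −0.0021 (SE 0.063).

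Among the small-subunit genes, log2 fold changes were positive in 16 and negative in 10, and their median was 0.014. Mrps5, a protein with a bacterial counterpart that lies near the entry of the messenger RNA, had the smallest p of all 76 genes in this fit. It ran from 24.8 to 30.3 FPKM with a median of 27.9 in P.T.ATBx, against 24.5 to 28.8 with a median of 25.7 in Control, and it exceeded the Control median in 9 of 10 P.T.ATBx libraries. Its log2 fold change was 0.085 (SE 0.034, unadjusted p = 0.0195, adjusted p = 0.264, limma), with an interval from 0.015 to 0.16. Mrps5 was also the gene with the smallest spread within groups. Its difference was above the median absolute log2 fold change of the 76 genes, which was 0.041. Mrps9, whose bacterial counterpart reaches the peptidyl-tRNA site, ran from 29.0 to 35.9 FPKM with a median of 31.7 in P.T.ATBx, against 26.5 to 34.8 with a median of 30.0 in Control (log2 fold change 0.098, SE 0.046, unadjusted p = 0.0464, adjusted p = 0.357, limma). These are the 2 genes under an unadjusted p of 0.05, and neither passed over all genes. The rank of Mrps5 depended on the settings: with libraries rescaled to TPM its adjusted p was 0.752 (limma) and Mrpl11 had the smallest, at 0.488. The smallest p was that of Mrps9 with the replicate block and that of Mrpl47 with the muscle covariate.

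Mrps12, whose bacterial counterpart checks codon pairing in the decoding centre, ran from 31.4 to 45.2 FPKM with a median of 38.8 in P.T.ATBx, against 34.1 to 46.7 with a median of 38.1 in Control. Its log2 fold change was −0.010 (SE 0.062). Mrps7, a protein of the small-subunit head, had 0.00085 (SE 0.058), with medians of 55.5 FPKM in P.T.ATBx and 56.4 in Control. Mrps24 had 0.092 (SE 0.085, adjusted p = 0.687, limma). The mitochondria-specific protein genes Mrps22 and Mrps27, the second of which codes for a pentatricopeptide repeat protein, had 0.058 (SE 0.072) and −0.052 (SE 0.048). Mrps25 had −0.035 (SE 0.052), with 3 of 10 P.T.ATBx libraries above the Control median.

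The 3 relatives of one bacterial protein did not share a level. Mrps18c averaged 105 FPKM in P.T.ATBx and 102 in Control, Mrps18a 59.4 FPKM in P.T.ATBx and 59.4 in Control, and Mrps18b 26.5 FPKM in P.T.ATBx and 27.6 in Control. Mrps18b had the smallest p of the negative small-subunit genes, the log2 difference being −0.059 (SE 0.042, adjusted p = 0.583, limma), while Mrps18c had 0.049 (SE 0.080). Mrps36, the gene outside the ribosome, had 0.019 (SE 0.10), with medians of 11.7 FPKM in P.T.ATBx and 12.6 in Control.

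By origin, 31 of the 46 genes with a bacterial counterpart and 15 of the 29 genes specific to mitochondria had a positive log2 fold change. The medians were 0.023 and 0.026. Each class had 0 calls.

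Where the genes did vary was between libraries within each group, and there most of them moved together. The level of the set in a library was summarised as the median, over the 76 genes, of the deviation of log2(FPKM + 1) from the gene's mean over all libraries. P.T.ATBx 1 stood at 0.271 and P.T.ATBx 4 at 0.132, and the other 8 P.T.ATBx libraries ran from −0.127 to 0.041. Control 1 stood at 0.287 and Control 3 at 0.070, and the other 8 Control libraries ran from −0.110 to 0.020. The same median over all genes tested stayed between −0.0036 and 0.0058 in P.T.ATBx and between −0.0080 and 0.0021 in Control. The group averages were 0.0054 ± 0.12 in P.T.ATBx and −0.0085 ± 0.12 in Control (SD, n = 10 each), so the 2 groups differed by much less than their libraries did.

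Both subunits followed this pattern. In P.T.ATBx 1 the large-subunit genes stood at 0.262 and the small-subunit genes at 0.271, and in Control 1 the large-subunit genes stood at 0.299 and the small-subunit genes at 0.267. P.T.ATBx 1 held the highest P.T.ATBx value of 68 of the 76 genes, and Control 1 the highest Control value of 64. The lowest libraries were P.T.ATBx 6, with the lowest P.T.ATBx value of 36 genes, and Control 10, with the lowest Control value of 21. Summed over the 76 genes, P.T.ATBx 1 had 4244 FPKM and Control 1 had 4376 FPKM, and the lowest sums were 3061 FPKM in P.T.ATBx 6 and 3081 in Control 9.

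**Figure D3:**
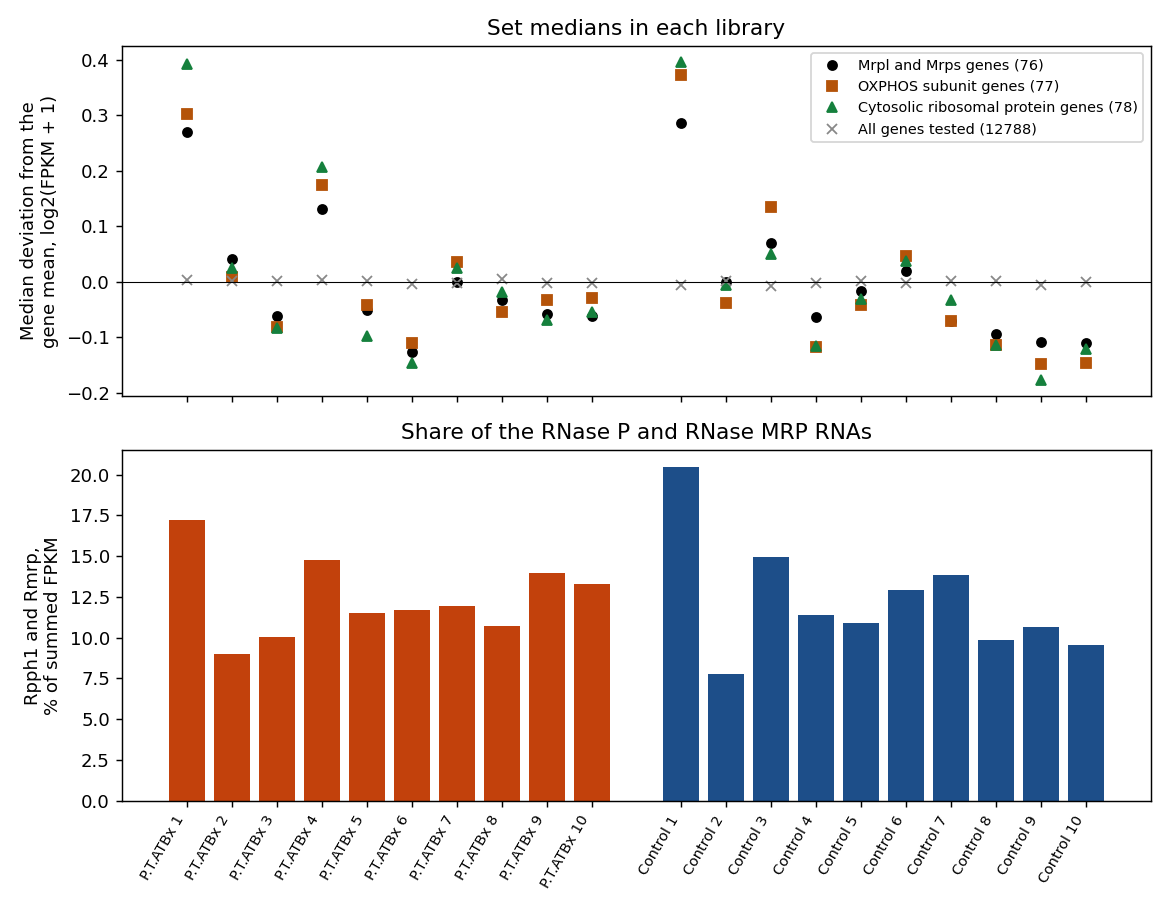
Upper panel, for each library, the median deviation from the gene mean on the log2(FPKM + 1) scale for the 76 Mrpl and Mrps genes, genes of oxidative phosphorylation subunits, cytosolic ribosomal protein genes and all genes tested; lower panel, the percentage of summed FPKM taken by Rpph1 and Rmrp, with P.T.ATBx libraries left of Control libraries. The first 3 sets rise together in P.T.ATBx 1 and Control 1, at 0.271 and 0.287 for Mrpl and Mrps genes, and the same libraries have the highest Rpph1 and Rmrp share of their group, 17.2% and 20.5%.

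Other measures moved with these libraries. The 4 libraries with the highest Rpph1 and Rmrp share were also the 4 with the highest median of the 76 genes. Their shares were 17.2% in P.T.ATBx 1, 14.8% in P.T.ATBx 4, 20.5% in Control 1 and 15.0% in Control 3. Below these 4 the order did not hold. P.T.ATBx 9 (14.0%) and Control 7 (13.8%) had medians of −0.058 and −0.070. The lowest shares of each group, in P.T.ATBx 2 (9.02%) and Control 2 (7.75%), went with 0.041 and −0.00051. Other large gene sets, chosen after the libraries had been looked at, also stood high in P.T.ATBx 1 and Control 1. Nuclear genes of oxidative phosphorylation subunits were at 0.303 in P.T.ATBx 1 and 0.374 in Control 1, and cytosolic ribosomal protein genes at 0.393 in P.T.ATBx 1 and 0.396 in Control 1. Expressed as a share of summed FPKM, the 76 genes took 0.606% in P.T.ATBx 1 and 0.581% in Control 1. The other P.T.ATBx libraries ran from 0.539% to 0.621%, and the other Control libraries from 0.535% to 0.612%. In each group only replicate 2 had a higher share than replicate 1. What part library composition has in these shifts was not tested.

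Transcript length moved with the shift too. The 36 genes with a transcript under 1000 nucleotides stood at 0.327 in P.T.ATBx 1 and 0.352 in Control 1, and the 40 longer ones at 0.226 in P.T.ATBx 1 and 0.232 in Control 1. Over all tested genes, those under 1000 nucleotides stood at 0.119 in P.T.ATBx 1 and 0.165 in Control 1, and the longer ones at −0.016 in P.T.ATBx 1 and −0.035 in Control 1. In these libraries the medians of the short and of the long members lay above those of all tested genes in the same class. The cut does not match lengths within a class. Median transcript length was 1038 nucleotides in the members and 2137 in all tested genes with a known length. What part length has in the shift was not tested. Against the median of the other 9 libraries of its group, P.T.ATBx 1 was higher in 75 of 76 genes, from 0.903-fold in Mrpl37 to 1.69-fold in Mrps36. Control 1 was higher in 74 of 76 genes, from 0.987-fold in Mrps5 to 1.74-fold in Mrps33.

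**Figure D4:**
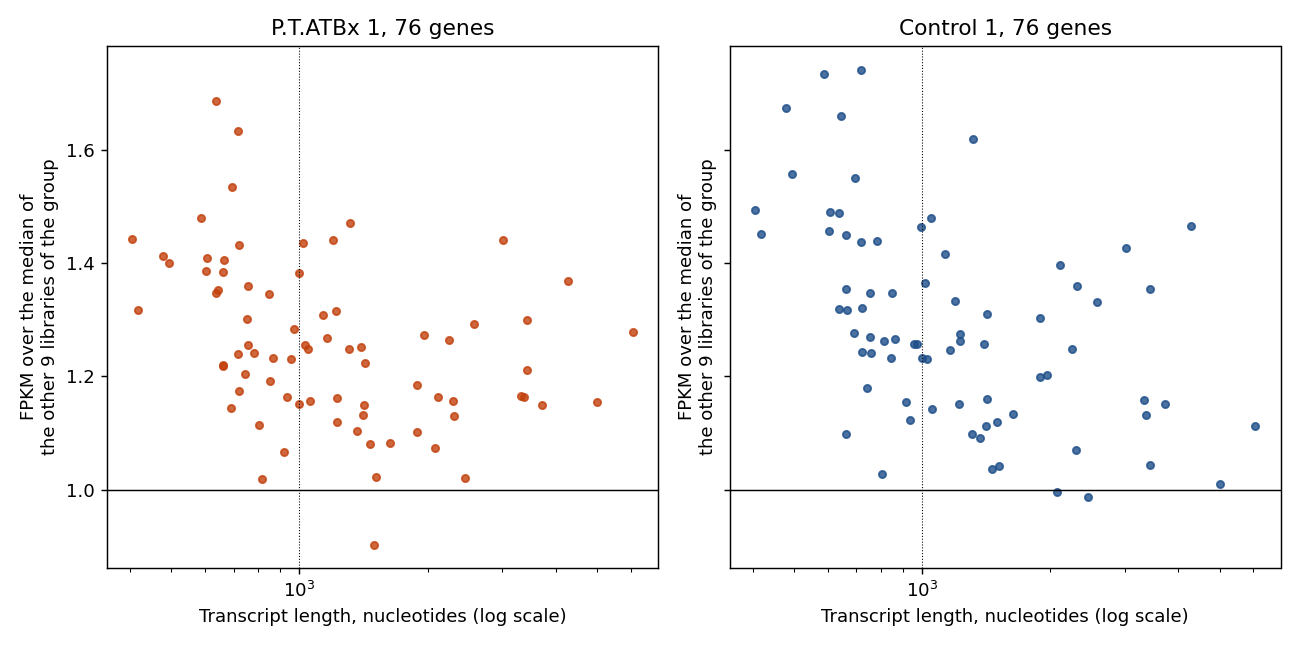
FPKM of each of the 76 genes in P.T.ATBx 1 (left) and Control 1 (right) divided by the median of the other 9 libraries of the same group, against transcript length in nucleotides (log scale), with a dotted line at 1000 nucleotides. The median ratio of the 36 shorter genes was 1.31 in P.T.ATBx 1 and 1.33 in Control 1, and that of the 40 longer genes 1.17 in P.T.ATBx 1 and 1.20 in Control 1.

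The spread of each gene within groups ordered the genes in the same way. The SD of log2(FPKM + 1) within groups was smallest in Mrps5 (0.067) and largest in Mrps33 (0.28), a small-subunit protein specific to mitochondria. Mrps33 ran from 6.33 to 13.6 FPKM with a median of 8.38 in P.T.ATBx, against 6.88 to 14.4 with a median of 8.44 in Control, the highest value of each group being that of its replicate 1. Across the 76 genes the rank correlation between this SD and transcript length was −0.59, against −0.14 across the 12283 tested genes with a length. The median SD was 0.14 in the 76 genes and 0.13 in all genes tested.

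After subtracting group means, the median Pearson correlation over the 2850 pairs of the 76 genes was 0.675, and 99.2% of the pairs were positive. Over all pairs of tested genes the median was −0.0018 and 49.8% were positive. Without the 4 libraries of highest Rpph1 and Rmrp share, which leaves 16, the median over the 2850 pairs was 0.323, with 88.7% positive, and over all pairs −0.0019. The pairs share libraries and scaling, so these values describe the table and carry no test.

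The rest of the mitochondrial translation machinery was also without a call. All 7 ribosomal protein genes listed under other symbols were tested, and 6 lay above 0 and 1 below, the median log2 fold change being 0.051. Dap3, a GTP-binding protein of the small subunit, averaged 13.0 FPKM in P.T.ATBx and 12.4 in Control (log2 fold change 0.066, adjusted p = 0.505, limma). Ict1, a large-subunit protein that acts as a peptidyl-tRNA hydrolase, averaged 69.3 FPKM in P.T.ATBx and 64.3 in Control (0.11, adjusted p = 0.532, limma). Of 25 tested genes for assembly of the ribosome and modification of its RNA, 0 passed and the median was −0.0091. Rpusd3, a pseudouridine synthase family member, had 0.25 (adjusted p = 0.155, limma) and Ftsj2, a methyltransferase of the ribosomal RNA, had −0.15 (adjusted p = 0.238, limma).

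Of 15 translation factors and partners 0 passed, with a median of 0.023. Guf1, a back-translocating elongation factor, had 0.13 (adjusted p = 0.140, limma), and Oxa1l, which inserts nascent proteins into the inner membrane, had 0.087 (adjusted p = 0.337, limma). Of 20 genes for mitochondrial aminoacyl-tRNA synthetases and the related amidotransferase 0 passed, with a median of 0.0033. Lars2, the leucyl-tRNA synthetase, averaged 1.88 ± 0.41 FPKM in P.T.ATBx and 2.76 ± 0.81 in Control (SD, n = 10 each), a log2 difference of −0.37 (limma, adjusted p = 0.126). Mars2, the methionyl-tRNA synthetase, had −0.11 (adjusted p = 0.335, limma).

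Of 10 tested genes for transcription and replication of mitochondrial DNA 0 passed, with a median of 0.024. The 2 with the smallest p were Ssbp1, which binds single-stranded DNA, at 0.11 (adjusted p = 0.511, limma), and the elongation factor gene Tefm at 0.14 (adjusted p = 0.514, limma). Of 24 genes of the protein import machinery, which brings every mitochondrial ribosomal protein into the organelle, 0 passed, 18 were positive and the median was 0.029. Dnajc19, a subunit of the import motor, averaged 34.7 FPKM in P.T.ATBx and 29.6 in Control (0.23, adjusted p = 0.151, limma), and Timm9, a small chaperone of the intermembrane space, had 0.14 (adjusted p = 0.437, limma). Of 7 tested regulators of mitochondrial biogenesis 0 passed, with a median of −0.027. Pprc1, a coactivator of the PGC-1 family, had −0.15 (adjusted p = 0.357, limma), and Gabpa, the DNA-binding subunit of GABP, had 0.042 (adjusted p = 0.644, limma). Nrf1 is listed at 0 in all 20 libraries.

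Marker lists for the cell types a tumour could hold are given beside these results. All 12 cycling-cell genes had negative log2 fold changes (median −0.065) and 0 were called. Their summed level ran from 730 to 863 FPKM in P.T.ATBx and from 764 to 866 in Control. The smallest p of that list were those of Aurkb at −0.16 (adjusted p = 0.0608, limma) and Top2a at −0.17 (adjusted p = 0.209, limma). Leukocyte genes had 4 positive and 6 negative members of 10. Their summed level was 812 to 1478 FPKM in P.T.ATBx and 897 to 1507 in Control. Itgb2 had −0.20 (adjusted p = 0.524, limma) and Coro1a had −0.11 (adjusted p = 0.614, limma), the smallest p there. All 8 tested skeletal muscle genes had positive log2 fold changes (median 0.25) and 0 were called. Acta1 had 0.98 (adjusted p = 0.572, limma) and Tnnt3 had 0.55 (adjusted p = 0.641, limma), the smallest p among them. Muscle is rich in mitochondria. The summed level of its list had a median of 14.3 FPKM in P.T.ATBx and 5.45 in Control, and ran from 3.79 to 60.2 FPKM in P.T.ATBx and from 2.46 to 96.1 in Control. Of its 11 genes, Myh2, Actn3 and Ryr1 averaged under 0.5 FPKM. Its highest list deviations were in P.T.ATBx 6 and Control 10, the libraries at the low end for the 76 genes. Of 6 endothelial genes 1 was positive and 5 were negative. The smallest p were those of Vwf at −0.37 (adjusted p = 0.146, limma) and Pecam1 at −0.13 (adjusted p = 0.25, limma). Of 4 tested keratinocyte genes 1 was positive and 3 were negative. There Krt5 had −0.32 (adjusted p = 0.610, limma) and Krt14 had −0.24 (adjusted p = 0.761, limma). Decorin (Dcn), a matrix proteoglycan of fibroblasts, was the 1 gene of all these marker lists past the threshold, averaging 543 ± 39.5 FPKM in P.T.ATBx and 672 ± 40.1 in Control (SD, n = 10 each; adjusted p = 0.00125, limma). Pdgfrb, the 1 of 7 fibroblast genes with a positive log2 fold change, had 0.19 (adjusted p = 0.339, limma). All 8 adipocyte genes had negative log2 fold changes and none was past the threshold. Their summed level was 92.1 to 783 FPKM in P.T.ATBx and 60.9 to 3141 in Control. Cfd had −0.76 (adjusted p = 0.734, limma) and Retn had −0.69 (adjusted p = 0.751, limma), the smallest p of the adipocyte list. With a list's score as a covariate, the median log2 fold change of the 76 genes was 0.040 for muscle (57 positive), 0.012 for leukocytes (41 positive) and 0.011 for cycling cells (43 positive), with 0 calls in each fit. The part of the other cell types in the values of the ribosomal genes was not tested.

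The promoters of the 76 genes were read for what they share. Whether this has a part in the shared movement between libraries was not tested. RefSeq (GRCm38.p6) gave a window from 250 bases before to 50 after the start for 67 of the 76 genes. GABP binds the ETS-type string CCGGAAG, which was searched on both strands. It occurred in the window of 24 of the 67 genes (35.8%), against 9.93% of 27025 genes with a window. The NRF1-type motif occurred in 4.48% of the 67 and 1.07% of all windows, and the YY1-type motif in 7.46% and 0.755%. At least 1 of the 3 occurred in 44.8% of the 67 and 11.3% of all windows. The 27025 genes include genes not expressed in these tumours, and shares among expressed genes alone were not computed. The differences may therefore not be particular to these genes. A match describes the letters only and is not a measured site. The 24 genes with the ETS-type string had a median log2 fold change of 0.021 and the 43 without it 0.034, and both sets had 0 calls.

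The stretches shown, 100 bases each, end at the base before the start, 2 with and 2 without the ETS-type string, from named genes whose stretch holds no annotated exon. Capitals mark the string, and each stretch is written along the gene's own strand. They lie at chr14:54426809-54426908 (plus strand) for Mrpl52, chr9:98601680-98601779 (minus strand) for Mrps22, chr1:42851133-42851232 (plus strand) for Mrps9 and chr4:155802778-155802877 (plus strand) for Mrpl20.
Mrpl52: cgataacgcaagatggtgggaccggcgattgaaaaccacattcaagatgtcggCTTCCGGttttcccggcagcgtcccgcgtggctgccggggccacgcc
Mrps22: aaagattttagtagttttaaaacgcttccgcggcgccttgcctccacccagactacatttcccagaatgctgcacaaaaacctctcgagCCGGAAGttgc
Mrps9: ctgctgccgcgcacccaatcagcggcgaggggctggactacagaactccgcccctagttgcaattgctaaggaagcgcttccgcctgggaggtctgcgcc
Mrpl20: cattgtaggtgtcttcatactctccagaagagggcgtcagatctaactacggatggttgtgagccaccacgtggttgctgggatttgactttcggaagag

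Many of these genes start head to head with a neighbour. A gene on the other strand started within 500 bases upstream of 22 of the 67 genes (32.8%), against 10.9% of the 27025 genes. Here too the 27025 genes were not limited to expressed ones. One such pair joins the subunits: Mrpl46 of the large subunit (chromosome 7, 78775341 to 78783089, minus strand) and Mrps11 of the small subunit (chromosome 7, 78783131 to 78792988, plus strand) start 41 bases apart. The 29 bases between them that lie in no annotated exon, at chr7:78783090-78783118 on the plus strand, show how little sequence separates the 2 starts.
Mrpl46 and Mrps11: ccatgaggcaacgcgggccggcgaggggc
Mrpl46 ran from 15.1 to 22.8 FPKM with a median of 17.5 in P.T.ATBx, against 16.2 to 25.4 with a median of 18.3 in Control. Mrps11 ran from 14.8 to 17.8 FPKM with a median of 15.5 in P.T.ATBx, against 13.9 to 18.9 with a median of 16.6 in Control. Both had negative log2 fold changes, −0.045 (SE 0.075) for Mrpl46 and −0.024 (SE 0.050) for Mrps11, within the spread of the libraries, and the pair was chosen after its values were seen. Mrps12 starts 146 bases from Sars2, the mitochondrial seryl-tRNA synthetase gene, and Mrpl43 starts 115 bases from Twnk, the gene of the mitochondrial DNA helicase.

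Exons of 21 of the 76 genes overlap exons of a gene on the other strand, and those of 5 overlap a gene on the same strand. The library kit keeps strand, but whether the counting used it is not given in the sources used here, so reads of such pairs may not be told apart. The 51 genes without an exon overlap had a median log2 fold change of 0.029 and 0 calls.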

How the data were processed

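RNA from MC38 tumours was sequenced from 20 stranded total RNA libraries, per the labels' protocols. The authors deposited 1 table of FPKM with 23402 rows and 1 column per library, with mm10 named in the submitters' processing notes. Which software aligned reads or computed FPKM, and with which gene models, is not given in the sources used here. Judged by the numbers, median-of-ratios factors between libraries were 1.00, so a scaling between libraries may have been applied. Read totals are unknown, and near-identical processed pseudogenes may share reads with some genes. Groups were taken from the sample titles.

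Rows averaging at least 0.5 FPKM, 12788 in all with every one of the 76 members, were fitted as log2(FPKM + 1) with limma 3.58.1 (R 4.3.3, robust and trended moderation, group as the only term), with Benjamini-Hochberg adjustment over all of them at 0.05. The log2(FPKM + 1) scale understates changes of low genes. Recovery of known changes was tested on simulated data. Transcript length is the median over protein-coding transcripts of GENCODE M21 (76 members, 12283 tested rows), and positions and promoters are from RefSeq on GRCm38.p6, matched by Entrez number. Members and lists were chosen with earlier results of these data known. Genes were named by rule: any member past the threshold, the 3 smallest p per direction among Mrpl and among Mrps, the 3 highest and 3 lowest levels, the extremes of spread, 18 preset members, and from each other list the called genes and the 2 smallest p. Others, such as Mrpl32, Mrpl37, Mrpl43 and the head-to-head pairs, were chosen after their values were seen, and list genes given as markers are named for their levels.

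Replicate numbers are shared by the groups. The correlation between same-numbered libraries, after subtracting group means, ran from −0.31 to 0.39 and was over 0.1 in 5 of 10 pairs. It was highest for replicate 1. These values do not settle whether the numbers mark pairs. The main fit did not use them, and a fit with the replicate number as a block is given below.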

Additional observations from a re-analysis of the deposited data

Results flagged for a closer look

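In 66 checks, 1 for each group of 10 libraries on the 32 named genes and the set median, 19 had a highest value whose gap to the nearest other library, as a share of the group's range, was above Dixon's 95% critical value. Chance alone flags about 1 group in 20, but the genes share libraries and move together, so the checks are not independent. Of the 19, 12 fell on Control 1 and 5 on P.T.ATBx 1. P.T.ATBx 1 stood apart for 5 genes, with 139 FPKM for Mrpl52, 147 for Mrpl20, 46.2 for Mrpl10, 130 for Mrpl12 and 50.1 for Mrps22. Control 1 stood apart for the set median, at 0.287 against 0.070 in the next library. It also stood apart for 11 genes, with 51.7 FPKM for Mrps24, 313 for Mrpl33, 154 for Mrpl54, 157 for Mrpl20, 14.4 for Mrps33, 53.0 for Mrpl2, 62.2 for Mrpl3, 28.0 for Mrpl4, 48.3 for Mrpl10, 21.5 for Mrpl11 and 145 for Mrps18c. Control 3 stood apart for Mrps5 at 28.8 FPKM and for Mrps18b at 32.6 FPKM.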

How the results depend on the processing

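In each of 15 alternative fits and 20 fits that left out 1 library, 0 of the 76 genes were called in either direction (limma). The smallest adjusted p of any member (limma) was 0.112, for Mrps5 without Control 1 and Control 3, the 2 libraries with a low correlation to the rest. In that fit 15 of the 76 members had an unadjusted p under 0.05 (limma), against 18.3% of all genes tested. The median log2 fold change of the members was 0.072 there. When 1 library was left out, that median lay between −0.016 (P.T.ATBx 1 left out) and 0.059 (Control 1 left out). The sign of the median thus rests on these libraries. In the same fits 1 to 9 members had an unadjusted p under 0.05 (limma), against 11% to 18.6% of all genes tested. The 9 were seen without Control 1, where the share over all genes was 18.6%. With the replicate number as a block, 0 members were called, and over all genes 65 were higher and 59 lower in place of 59 and 49. The largest change over all genes came with arrayWeights, with 154 higher and 152 lower, and on the TPM scale there were 20 higher and 29 lower. The fits without the 4 libraries of highest Rpph1 and Rmrp share and with that share as a covariate were chosen after seeing the data, and gave members' medians of 0.015 and 0.017.

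Signs of some small uncalled differences turned, and the cause was not tested. Mrps7 had −0.0036 with quantile normalization, −0.011 with the leukocyte covariate and −0.0048 with the Rpph1 and Rmrp covariate. Mrpl4 had 0.0074 with arrayWeights, 0.0030 with the muscle covariate, 0.023 without the 2 low-correlation libraries and 0.0098 without the 4. Mrps12 had 0.014, 0.0036, 0.047 and 0.00046 in the same fits. Mrps36 had −0.011 with arrayWeights, −0.12 with the cycling-cell covariate and −0.035 without the 4. Mrps18a had 0.024 with the muscle covariate and 0.044 without the 2. Without the 2, Mrpl2 had 0.00039 and Mrpl12 0.071. With the leukocyte covariate Mrpl20 had −0.0063 and Mrpl17 −0.0088. With the cycling-cell covariate Mrps25 had 0.021, Mrpl54 −0.0088, Mrpl23 −0.016 and Mrps33 −0.0076. On leaving out 1 library, signs also turned within these ranges: Mrpl54 −0.0081 to 0.090, Mrpl20 −0.026 to 0.076, Mrpl17 −0.017 to 0.025, Mrps33 −0.029 to 0.11, Mrpl4 −0.043 to 0.017, Mrpl12 −0.10 to 0.016, Mrps7 −0.033 to 0.028, Mrps12 −0.036 to 0.021, Mrps18a −0.036 to 0.030 and Mrps36 −0.044 to 0.062.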
